A study of Mus musculus with 96 samples.

Results

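Cardiomyocyte (CM) small RNA was compared between hearts on day 1 (D1) after myocardial infarction (MI) and hearts without MI (D0), in 8 of the 96 libraries of the series, 4 per time point. The libraries were chosen by their labels alone. All mice were adult male C57Bl/6J animals with no engineered allele named. MI was made by permanent ligation of the left anterior descending coronary artery, and the D0 mice had no MI, so the operation itself is part of the difference between the groups. Hearts were digested with collagenase and CMs were enriched by repeated low-speed centrifugation, with no sort for a marker named. Material of 3 mice was pooled per library, or of fewer where a sample was missing. The labels call the 4 libraries of a time point biological replicates and the study's text also calls them technical, so the p-values below measure the spread between these pools.

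MicroRNAs (miRNAs) are short RNAs cut from hairpin precursors, and each hairpin can give a mature strand from its 5p arm and one from its 3p arm. Bases 2 to 8 of a mature miRNA, the seed, pair with target messenger RNAs, so miRNAs with one seed share many of their targets. In CMs a few muscle miRNAs, above all miR-1a-3p, dominate the small RNA pool, and miR-208a, miR-208b and miR-499 are made from introns of myosin heavy chain genes. In the infarcted heart, miR-21 and miR-210 are known for their induction by stress and low oxygen, and miR-223 and miR-142 belong to the blood cells that enter the tissue.

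The sequences below are those of a choice of the miRNAs called on the TMM scale, grouped by seed. They were taken from RefSeq (GRCm38.p6) and written 5′ to 3′ with the seed in capitals. RefSeq sequences were matched for 413 of the 484 miRNAs tested. None was matched for miR-1a-3p, miR-143-3p, miR-151-3p, miR-30b-5p and miR-486a. The first set shares the seed AAAGUGC of the miR-17 family and rose at D1. MiR-17-5p lies at chr14:115043684-115043706 on the plus strand, miR-106a-5p at chrX:52742541-52742563 and miR-93-5p at chr5:138165574-138165596, both on the minus strand.
miR-17-5p: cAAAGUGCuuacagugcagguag
miR-20a-5p: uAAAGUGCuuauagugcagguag
miR-106a-5p: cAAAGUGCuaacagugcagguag
miR-106b-5p: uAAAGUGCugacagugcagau
miR-93-5p: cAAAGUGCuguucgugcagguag
The next 4 also rose, in pairs that share the seeds AGCACCA and GCAGCAU.
miR-29a-3p: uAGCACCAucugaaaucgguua
miR-29c-3p: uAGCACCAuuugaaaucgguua
miR-103-3p: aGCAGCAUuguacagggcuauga
miR-107-3p: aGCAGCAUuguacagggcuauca
The last 7 fell on the TMM scale described below, 6 of them in pairs with one seed.
miR-30a-3p: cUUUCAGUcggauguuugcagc
miR-30e-3p: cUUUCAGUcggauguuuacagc
miR-148a-3p: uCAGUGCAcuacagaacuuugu
miR-148b-3p: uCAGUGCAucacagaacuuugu
miR-10a-5p: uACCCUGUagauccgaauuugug
miR-10b-5p: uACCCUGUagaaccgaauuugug
miR-1839-5p: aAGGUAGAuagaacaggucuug

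The 8 libraries held 10504090 to 24279105 reads on mature miRNAs. The TMM factor, by which edgeR corrects the library size for a few dominant RNAs, was 0.34, 0.29, 0.31 and 0.36 in D0 replicates 1 to 4 and 0.49, 0.54, 1.07 and 1.04 in D1 replicates 1 to 4. D1 replicates 1 and 2 thus had lower factors than D1 replicates 3 and 4, and all 4 were above D0 (exact permutation test over 70 arrangements, two-sided p = 0.0286, the smallest that 4 libraries against 4 can give). The number of mature miRNAs with a count was 537.5 ± 7.05 at D0 and 686.5 ± 38.1 at D1 (SD, n = 4 each, exact permutation p = 0.0286). Reads with no match to a mature miRNA made up 32.8% ± 6.14 of the total at D0 and 38.0% ± 2.03 at D1 (SD, n = 4 each, exact permutation p = 0.143).

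**Figure D1:**
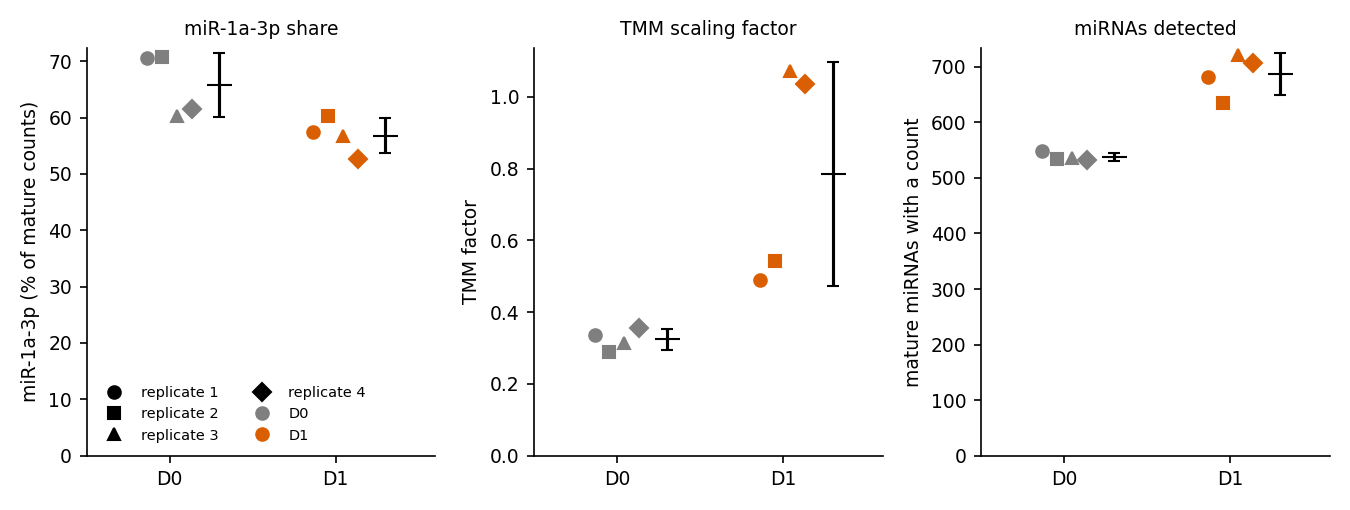
Share of the mature counts on miR-1a-3p (left, %), TMM factor (middle) and number of mature miRNAs with a count (right) in each CM library of D0 (grey) and D1 (orange). Marker shape gives the replicate and bars give the mean ± SD of 4 libraries. TMM factors of D1 replicates 3 and 4 were above 1, whereas D0 lay between 0.29 and 0.36.

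MiR-1a-3p, the main miRNA of heart muscle, was the most abundant in every library. Its share of the mature counts was 70.6%, 70.7%, 60.2% and 61.4% in D0 replicates 1 to 4. At D1 it was 57.5%, 60.3%, 56.7% and 52.6%. The groups overlapped by a single pair, because D1 replicate 2 lay just above D0 replicate 3. The means were 65.7% ± 5.71 at D0 and 56.8% ± 3.18 at D1 (SD, n = 4 each), a difference of -8.94 percentage points that did not pass an exact two-sided permutation test (p = 0.0571). MiR-1b-5p held a further 8.04% ± 0.412 at D0 and 6.39% ± 0.995 at D1 (exact permutation p = 0.0286), and its counts were 9.91 to 13.7 per 100 counts of miR-1a-3p in the 8 libraries. Its gene lies on the strand opposite to a miR-1a gene in GENCODE, and how reads of such pairs were assigned cannot be seen from the counts. All other miRNAs together rose from 26.2% ± 5.89 to 36.8% ± 4.06 of the counts (exact permutation p = 0.0286).

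The shares matter for results on the library size scale, because a count divided by the library size is a share of a pool that miR-1a-3p dominates. Both kinds of scale were therefore used side by side. On the library size scale the values are CPM, the usual depth-scaled counts, taken over the mature counts, and on the TMM scale the library size is multiplied by the TMM factor. A TMM-scaled CPM is hence not a share, and the value of miR-1a-3p lay between 507984 and 2446040.

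The replicates of D0 and D1 were spread more widely than those of later days. Spearman's rho over the 484 miRNAs tested, which shares all its points among pairs of libraries and is given as a description, was 0.923 to 0.966 within D0 and 0.903 to 0.982 within D1. Between D0 and D1 it was 0.846 to 0.966, so some pairs across the groups were as alike as pairs within them. The median SD of log2 CPM over 4 replicates was 0.73 at D0 and 0.68 at D1 on the TMM scale, against 0.45 for D3, 0.37 for D7, 0.41 for D14 and 0.48 for D28. With library size it was 0.73 at D0 and 0.79 at D1. Without D0 replicate 1 the median SD of D0 on the TMM scale dropped to 0.43.

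D0 replicate 1 stood apart from the other D0 libraries, and the D1 libraries were spread widely. Each library was projected on the line from the mean of D0, set to 0, to the mean of D3, set to 1. On the TMM scale D1 replicates 1 to 4 lay at 0.20, 0.36, 0.87 and 0.80. With library size they lay at 0.27, 0.39, 0.81 and 0.81. D0 replicate 1 lay at 0.38, beyond D1 replicates 1 and 2, whereas the other D0 libraries lay at -0.03, -0.19 and -0.17, all on the TMM scale. With library size D0 replicate 1 lay at 0.23, short of D1 replicates 1 and 2. Of the other 7 libraries, the one nearest to D0 replicate 1, by root mean square distance of log2 CPM on the TMM scale, was D1 replicate 2. D1 replicate 1 was nearer on average to the D0 libraries (1.18 log2 units) than to the other D1 libraries (1.37). D1 replicate 3 was nearer to the D3 libraries (1.12) than to the other D1 libraries (1.27), and so was D1 replicate 4 (1.01 against 1.15).

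**Figure D2:**
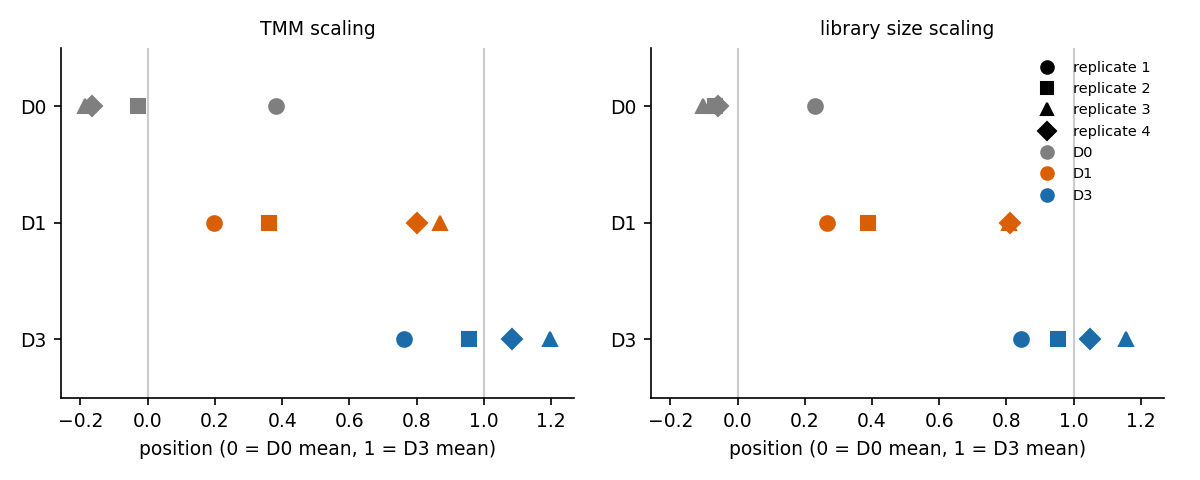
Position of each CM library of D0 (grey), D1 (orange) and D3 (blue) on the line from the mean of D0 (0) to the mean of D3 (1), over 484 miRNAs, with TMM scaling (left) and library size scaling (right). Marker shape gives the replicate. D1 replicates 1 and 2 lay between 0.20 and 0.39 and D1 replicates 3 and 4 between 0.80 and 0.87.

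The cell type was checked with its markers. The median share of miR-1a-3p was 660387 CPM in CMs at D0, against at most 108382 CPM in the other cell types. MiR-499-5p, miR-208a-3p and miR-208b-3p were also highest in CMs, but by narrow margins over hematopoietic cells. Their medians at D0 were 1139, 107.5 and 1.95 CPM in CMs, against 981.4, 90.7 and 1.86 CPM in hematopoietic cells. MiR-133a-3p, a further muscle miRNA, went against the label, with a median of 240.6 CPM in CMs at D0 and 1182 CPM in endothelial cells (ECs). Markers of other cells were not at 0, and several were high. MiR-143-3p of smooth muscle had a median of 30042 CPM in CMs at D0, against 26167 CPM in FBs and 57870 CPM in ECs. MiR-486a-5p, listed as erythroid, was highest in CMs, at 1792 CPM, and miR-126a-3p of ECs was at 6669 CPM against 195395 CPM in ECs. MiR-199a-3p of fibroblasts (FBs) had a median of 22.5 CPM in CMs at D0 and 141.4 CPM at D1, against 43186 CPM in FBs at D0. MiR-223-3p of myeloid cells had 0.102 and 2.18 CPM, against 782.8 CPM in hematopoietic cells (HCs) at D0. In such bulk samples, fewer cells of a type and less RNA per cell cannot be told apart.

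On the TMM scale, 66 miRNAs rose and 55 fell at D1, together 121 or 25% of the 484 tested (edgeR quasi-likelihood test on all 24 CM libraries, Benjamini-Hochberg adjusted p under 0.05). Those that rose were 13.6% of the tested miRNAs and those that fell 11.4%. On the library size scale, 287 rose (59.3%) and 11 fell (2.27%), together 61.6%. Over all tested miRNAs, log2 fold changes had a median of 0.20 on the TMM scale and 1.42 on the library size scale. A miRNA with a value of 1 therefore lay above the median of all miRNAs on the first scale and below it on the second. With miR-1a-3p left out of the library size the median was 1.08. What sets the scales apart was not tested.

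The library size scale gave more rises and fewer falls than the TMM scale. All 66 miRNAs that rose on the TMM scale rose on the library size scale too. Their sign was bound to hold, because all D1 TMM factors were above those of D0. Of the 55 that fell on the TMM scale, 11 fell on the library size scale, 43 did not pass the test there and let-7a-5p passed it in the opposite direction. A further 220 miRNAs rose on the library size scale alone. The 11 that fell on both scales were miR-30a-3p, miR-30e-3p, miR-143-3p, miR-151-3p, miR-181a-2-3p, miR-486a-3p, miR-486b-3p, miR-582-3p, miR-881-3p, miR-1b-5p and miR-7225-5p, listed in full after their values were seen.

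**Figure D3:**
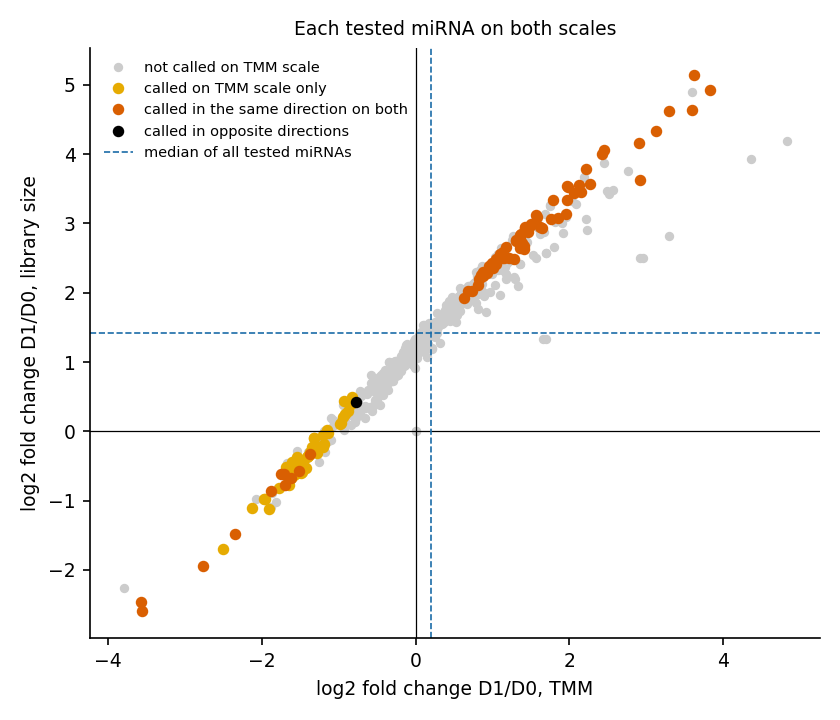
Log2 fold change of D1 over D0 for 484 miRNAs, with TMM scaling on the x axis and library size scaling on the y axis. Colours give the calls of edgeR, and dashed lines mark the medians, 0.20 and 1.42. The points lie along a line shifted upwards, and 43 of the 55 TMM falls did not pass with library size.

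The calls rested on the spread of the other days as well. In a fit restricted to the 8 libraries on the TMM scale, 3 miRNAs passed, or 0.62%, all of them lower: miR-1839-5p, miR-486a-5p and miR-486b-5p. At an unadjusted p under 0.05 there were 143. In the same 8 libraries DESeq2 called 89 miRNAs (18.4%, with 8.06% higher and 10.3% lower), limma with voom quality weights called 88 (18.2%, with 7.02% higher and 11.2% lower) and edgeR on the library size scale called 206 (42.6%). DESeq2 gave no adjusted p there for 114 of the 484 miRNAs, which count as not called. The biological coefficient of variation, edgeR's estimate of the relative spread between replicates, was 0.375 over all 24 CM libraries and 0.498 over the 8 libraries of D0 and D1. For D1 alone it was 0.532 and for D0 alone 0.448.

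Single libraries also moved the count of 121. It was 192 without D0 replicate 1, and between 67 and 73 without any other D0 library. Without D1 replicate 1, 2, 3 or 4 it was 183, 137, 46 and 60. In each of the 8 fits with a library left out, 39 miRNAs kept their call, 19 higher and 20 lower. MiR-20a-5p, miR-30b-5p, miR-10a-5p, miR-10b-5p, miR-144-3p and miR-16-5p each lost their call without D0 replicate 2, 3 or 4 and without D1 replicate 3 or 4. Those of let-7i-5p and miR-130a-3p were lost in 4 such fits and that of miR-30c-1-3p in 3. Without D1 replicate 3, miR-210-3p, miR-21a-5p, miR-29a-3p, miR-29c-3p, miR-93-5p, miR-103-3p, miR-107-3p, miR-106b-5p, miR-125b-5p, miR-30d-3p and miR-143-3p also lost theirs. Without D0 replicate 3, miR-30e-3p and miR-143-3p did.

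The D1 libraries contributed unequally to the called miRNAs, which is a description of the calls and not an independent test. Of the 66 miRNAs that rose, 24 lay above all D0 values in D1 replicate 1 and 29 in D1 replicate 2. In D1 replicates 3 and 4 it was 65 of 66 each. Of the 55 that fell, 27, 46, 54 and 54 lay below all D0 values in D1 replicates 1 to 4. The median difference from the D0 mean among the rises was 0.56, 0.82, 1.83 and 1.88 log2 units in D1 replicates 1 to 4. Among the falls it was -0.65, -1.05, -2.41 and -2.15.

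All 4 D1 libraries lay outside the D0 range on the TMM scale for 56 miRNAs, or 11.6% of those tested, 22 higher (4.55%) and 34 lower (7.02%). With library size it was 139, or 28.7%, with 136 higher (28.1%) and 3 lower (0.62%). Called and without overlap on both scales were 19 miRNAs that rose and 1 that fell. All D1 TMM factors were above those of D0. A rise without overlap on the TMM scale was therefore bound to be without overlap on the library size scale too. The library size scale is thus no separate test of the 19. The one that fell was miR-1b-5p. Among the 19 that rose, the 6 averaging 10 CPM or more, named after their values were seen, were miR-125b-5p, miR-130a-3p, miR-199b-5p, miR-30c-1-3p, miR-30d-3p and miR-484.

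Among these 6, miR-125b-5p was the most abundant. It had 2423, 2018, 1413 and 1633 TMM-scaled CPM in D0 replicates 1 to 4. In D1 replicates 1 to 4 it had 2531, 2684, 3935 and 4056. All D1 values were higher, D1 replicate 1 by a narrow margin over D0 replicate 1, and the log2 fold change was 0.82 ± 0.23 (SE, edgeR, Benjamini-Hochberg adjusted p = 0.0126). MiR-199b-5p, a miRNA of stromal cells, had 64.8, 34.0, 37.0 and 38.8 TMM-scaled CPM at D0. At D1 it had 68.4, 88.0, 105.9 and 125.4. The groups did not overlap, and the log2 fold change was 1.15 ± 0.30 (SE, edgeR, adjusted p = 0.0101).

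The other 4 were less abundant. MiR-30d-3p, the minor arm of its hairpin, ranged from 26.2 to 33.1 TMM-scaled CPM at D0 and from 42.9 to 55.6 at D1. MiR-484 ranged from 18.2 to 36.4 at D0 and from 36.6 to 100.9 at D1. The groups of miR-484 thus nearly touched, and D1 replicates 3 and 4 held its high values. MiR-130a-3p and miR-30c-1-3p had log2 fold changes of 0.97 ± 0.31 and 0.69 ± 0.25 (SE, edgeR, adjusted p = 0.0290 and 0.0467).

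The largest rises among the miRNAs averaging 10 CPM or more were those of miR-17-5p and miR-106a-5p of the miR-17 family. It is known for promoting cell proliferation. MiR-17-5p had 34.7, 8.08, 8.71 and 7.93 TMM-scaled CPM in D0 replicates 1 to 4. In D1 replicates 1 to 4 it had 18.5, 22.1, 154.8 and 121.2. D1 replicates 3 and 4 were far above the rest, and D0 replicate 1 was above D1 replicates 1 and 2, so the groups overlapped. The log2 fold change was 2.43 ± 0.59 (SE, edgeR, adjusted p = 0.0079), and 1.80 to 3.26 over the fits with a library left out.

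MiR-106a-5p followed the same order of libraries. It had 25.1, 6.12, 7.13 and 6.00 TMM-scaled CPM at D0. At D1 it had 13.7, 15.3, 92.9 and 81.7. The values of miR-20a-5p were 164.4, 29.4, 30.1 and 26.4 at D0, and 63.0, 71.9, 398.1 and 326.0 at D1. D0 replicate 1 exceeded D1 replicates 1 and 2 for both, with log2 fold changes of 2.22 ± 0.55 for miR-106a-5p and 1.78 ± 0.56 for miR-20a-5p (SE, edgeR, adjusted p = 0.0079 and 0.0233). With a library left out the value of miR-20a-5p was 1.25 to 2.90, and it passed in 3 of the 8 such fits.

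The cluster on chromosome 5 moved in both directions. Its members miR-93-5p and miR-106b-5p rose, by log2 fold changes of 1.58 ± 0.44 and 2.45 ± 0.62 (SE, edgeR, adjusted p = 0.0126 and 0.0089). MiR-25-3p, at chr5:138165332-138165353 beside them and with a different seed, fell by 0.87 on the log2 TMM scale (adjusted p = 0.0079), but stood at 0.29 on the library size scale. It had 768.6, 858.7, 920.3 and 803.5 TMM-scaled CPM at D0 and 648.3, 463.9, 344.0 and 371.2 at D1, without overlap. MiR-106b-3p, the other arm of the hairpin of miR-106b-5p, fell by 1.35 on the log2 TMM scale (edgeR, adjusted p = 0.0042), and stood at -0.22 on the library size scale without passing the test. Over the 12 tested members of the miR-17-92 list and its paralogs, 4 rose and 2 fell on the TMM scale, against 13.6% and 11.4% of all miRNAs. Not all of the 5 miRNAs that rose with the seed AAAGUGC are on this list. The list had a median log2 fold change of 1.36, against 0.20 over all miRNAs. MiR-20b-5p, the sixth member with the seed AAAGUGC, had 2, 3, 3 and 0 counts at D0 and 5, 3, 43 and 31 at D1 and did not pass (edgeR, adjusted p = 0.0802).

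MiR-210-3p, the best known miRNA of the low oxygen response, had 32.1, 9.31, 7.72 and 7.72 TMM-scaled CPM at D0. At D1 it had 19.0, 18.8, 99.8 and 84.3. The pattern was that of miR-17-5p, with D0 replicate 1 above D1 replicates 1 and 2. Its log2 fold change was 1.98 ± 0.53 on the TMM scale (SE, edgeR, adjusted p = 0.0117) and 3.52 on the library size scale.

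MiR-21a-5p, a miRNA of stress and fibrosis, had 1479, 530.0, 451.9 and 450.1 TMM-scaled CPM at D0. At D1 it had 874.0, 1185, 2297 and 1996. Again D0 replicate 1 overlapped the 2 lower D1 libraries, and the log2 fold change was 1.13 ± 0.33 (SE, edgeR, adjusted p = 0.0180). Its other arm, miR-21a-3p, was nearly absent at D0, with 0, 1, 0 and 1 counts, and had 15, 15, 22 and 24 counts at D1. This arm did not overlap and passed the test on both scales (edgeR, adjusted p = 0.00062 on the TMM scale), but its fold change rests on 2 counts at D0 and is not given.

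Of the 18 tested members of the list on inflammation and hypoxia, 6 rose on the TMM scale, against 13.6% of all miRNAs. The list had a median log2 fold change of 1.12, against 0.20 over all miRNAs. None of the 18 fell in edgeR, where 11.4% of all miRNAs did, and 0 had an unadjusted p under 0.05 in that direction. DESeq2 called 0 lower and limma with voom weights called 2 lower, against 16.7% and 21.1% of all miRNAs. The 6 were miR-210-3p, both arms of miR-21a, miR-132-3p, and miR-34a-5p and miR-34c-5p, which p53 is known to induce. MiR-34c-5p had 19, 11, 22 and 16 counts at D0 and 114, 93, 131 and 142 at D1, without overlap on the TMM scale (log2 fold change 1.28 ± 0.28, SE, edgeR, adjusted p = 0.0054). MiR-146a-5p and miR-155-5p, which are known to be induced by inflammatory signals, did not pass on the TMM scale, at log2 fold changes of -0.24 and -0.35 on the TMM scale and rose on the library size scale, by 0.98 and 1.00.

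MiRNAs of leukocytes were rare in the libraries, and several rose. MiR-142a-3p had 17, 9, 15 and 7 counts at D0 and 195, 66, 118 and 190 at D1. As TMM-scaled CPM these were 4.79, 2.20, 2.97 and 1.50 at D0 and 16.4, 8.56, 7.22 and 11.7 at D1, without overlap and highest in D1 replicate 1. Its log2 fold change was 1.95 ± 0.45 (SE, edgeR, adjusted p = 0.0076). MiR-223-3p had 2, 2, 1 and 0 counts at D0 and 31, 8, 47 and 82 at D1 (edgeR, adjusted p = 0.0076). Of the 7 tested members of the leukocyte list 4 rose on the TMM scale, against 13.6% of all miRNAs (11.4% fell). The 4 were both arms of miR-142a and of miR-223, and the list had a median log2 fold change of 1.95. In the other direction edgeR, DESeq2 and limma with voom weights each called 0, and 0 had an unadjusted p under 0.05. MiR-150-5p of lymphocytes did not pass (log2 fold change -0.55, adjusted p = 0.315). The list summed to 15.6 to 82.3 CPM at D0 and 40.9 to 111.1 CPM at D1, and overlapped because of D0 replicate 1. On the TMM scale the sum did not rise, with a mean of 103.5 ± 94.2 at D0 and 95.9 ± 14.5 at D1 (SD, n = 4 each), and 43.7 to 243.6 against 75.3 to 107.2. The part of leukocytes in other results was not tested.

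Among the heart muscle miRNAs, calls went in both directions on the TMM scale. MiR-499-5p, encoded in a myosin gene, had 4766, 3156, 3348 and 3431 TMM-scaled CPM at D0. At D1 it had 4531, 7051, 9241 and 7082. Only D1 replicate 1 lay within the D0 range, below D0 replicate 1, and the log2 fold change was 0.92 ± 0.21 (SE, edgeR, adjusted p = 0.0076). MiR-1a-3p fell by 1.30 ± 0.30 on the log2 TMM scale (SE, edgeR, adjusted p = 0.0076), without overlap, and stood at -0.21 on the library size scale without passing (adjusted p = 0.133). MiR-133a-3p and miR-208a-3p did not pass on the TMM scale, at 0.79 ± 0.46 and 0.71 ± 0.30 (SE, edgeR, adjusted p = 0.207 and 0.0842). Over the list, 1 of 13 tested members rose and 2 fell on the TMM scale, while 10 rose and 1 fell on the library size scale. Limma with voom weights called 6 of the 13 higher and 2 lower, against 24.8% and 21.1% of all miRNAs. Over all miRNAs edgeR called 13.6% higher and 11.4% lower on the TMM scale, and 59.3% and 2.27% on the library size scale.

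MiR-206-3p, a miRNA of skeletal muscle with the seed of miR-1, fell as well. It had 1133, 1327, 1269 and 976.3 TMM-scaled CPM at D0 and 691.9, 606.1, 246.1 and 245.6 at D1, without overlap. Its log2 fold change was -1.39 ± 0.35 on the TMM scale (SE, edgeR, adjusted p = 0.0079), and -0.35 on the library size scale, where it did not pass. On both scales its D1 libraries lay below all D0 libraries. MiR-1a-3p, with the same seed, fell without overlap on the TMM scale too, at a log2 fold change of -1.30. Whether reads of miR-1a-3p were counted as miR-206-3p cannot be seen from the counts. A fall of miR-206-3p apart from miR-1a-3p was not tested.

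Of the miR-29 family, miR-29a-3p and miR-29c-3p rose. They are known to repress collagen genes. MiR-29a-3p had 2519, 1025, 722.6 and 831.8 TMM-scaled CPM at D0 and 1313, 2320, 6077 and 4728 at D1. D0 replicate 1 overlapped D1 replicates 1 and 2, and the log2 fold change was 1.50 ± 0.42 (SE, edgeR, adjusted p = 0.0138). MiR-29c-3p was at 1.49 ± 0.41 (adjusted p = 0.0119), and miR-29b-3p, of the same seed, was at 0.84 ± 0.53 without passing (adjusted p = 0.235).

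Members of the miR-30 family moved in both directions, on the 3p side too. On the 5p side, miR-30b-5p rose by 1.56 ± 0.54 on the log2 TMM scale (SE, edgeR, adjusted p = 0.0365), with 246.5 to 1701 TMM-scaled CPM at D0 and 614.2 to 3686 at D1. Its fold change was 1.06 to 2.53 with a library left out, and it passed in 3 of the 8 such fits. The abundant miR-30a-5p, miR-30c-5p and miR-30d-5p did not pass on the TMM scale and rose on the library size scale, by 0.81, 1.39 and 0.72. On the 3p side, miR-30a-3p had 5482, 13809, 15573 and 14328 TMM-scaled CPM at D0 and 7367, 5234, 1389 and 1968 at D1. D0 replicate 1 lay between D1 replicates 1 and 2, and the fall was 1.62 ± 0.43 (adjusted p = 0.0105). MiR-30e-3p, with its seed, fell by 1.70 ± 0.45 (adjusted p = 0.0108), and both also fell on the library size scale, by 0.67 and 0.77. MiR-30c-1-3p and miR-30d-3p rose as given above, and miR-30c-2-3p was the third 3p arm of the list that fell. Over the 17 tested members of the miR-29 and miR-30 list, 6 rose and 3 fell on the TMM scale, against 13.6% and 11.4% of all miRNAs.

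**Figure D4:**
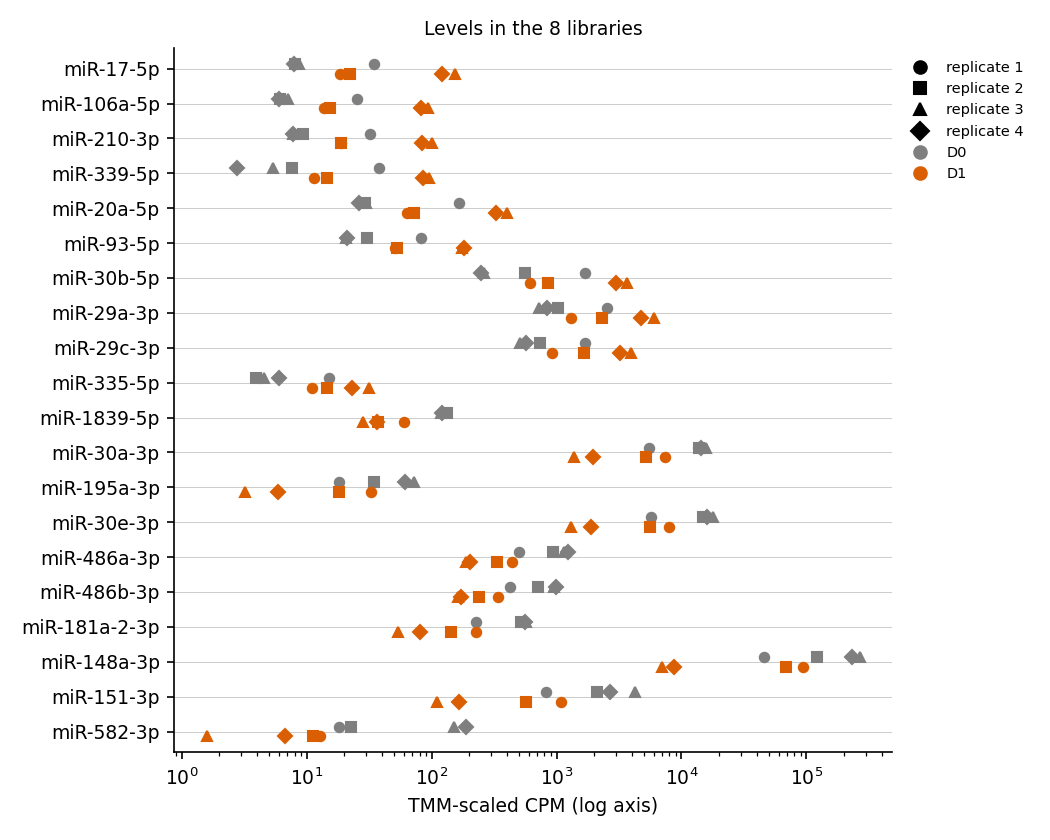
TMM-scaled CPM (log axis) of the 10 largest rises and the 10 largest falls among miRNAs averaging 10 CPM or more, in each D0 (grey) and D1 (orange) library, ordered by log2 fold change. Marker shape gives the replicate. For the 10 rises, D0 replicate 1 (grey circle) lies above D1 replicates 1 and 2. On the library size scale all 10 rises kept their sign and so did all 10 falls. For the rises this was bound to happen, because all D1 TMM factors were above those of D0.

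Among miRNAs averaging 10 CPM or more, miR-582-3p fell most, by 3.56 ± 0.67 on the log2 TMM scale (SE, edgeR, adjusted p = 0.0014) and by 2.59 on the library size scale. Its values were 18.04, 22.8, 151.0 and 187.3 TMM-scaled CPM at D0, and 12.8, 11.3, 1.59 and 6.66 at D1. On the TMM scale the groups did not overlap, but D0 replicates 3 and 4 were several times higher than D0 replicates 1 and 2. On the library size scale they overlapped, with 6.09, 6.58, 47.5 and 66.8 CPM at D0 and 6.30, 6.13, 1.71 and 6.90 at D1. In D1 replicate 3 miR-582-3p rested on 26 counts.

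The fall of miR-1839-5p was even across libraries. It had 122.1, 132.0, 119.0 and 120.9 TMM-scaled CPM at D0 and 59.7, 37.1, 28.2 and 36.3 at D1. D0 replicate 1 was no exception here, and the fall was 1.61 ± 0.24 on the log2 TMM scale (SE, edgeR, adjusted p = 0.00028). On the library size scale it stood at -0.45 and did not pass (adjusted p = 0.0953). MiR-486a-5p, a miRNA of red blood cells and muscle, had 4987, 6031, 6125 and 5158 TMM-scaled CPM at D0 and 2808, 2045, 1829 and 2228 at D1. Its fall of 1.32 ± 0.22 passed the TMM test (adjusted p = 0.000365), while the library size scale gave -0.09 (adjusted p = 0.705). MiR-486b-5p had identical counts, and the genes of both overlap on opposite strands in GENCODE, so the pair cannot be told apart. Both were among the 3 calls of the 8 libraries fitted alone on the TMM scale.

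MiR-144-3p and miR-451a, which share a locus active in red blood cells, did not follow miR-486. MiR-144-3p rose and had 1, 0, 1 and 0 counts at D0 and 7, 3, 28 and 23 at D1 (edgeR, adjusted p = 0.0365). MiR-451a ranged from 2.20 to 5.15 TMM-scaled CPM at D0 and from 5.99 to 8.04 at D1, without overlap and without passing the test (log2 fold change 0.85, adjusted p = 0.154). Over the erythroid list 1 of 7 tested members rose and 4 fell on the TMM scale, against 13.6% and 11.4% of all miRNAs. The 4 were the arms of miR-486a and miR-486b.

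MiR-148a-3p and its seed relative miR-148b-3p fell on the TMM scale. MiR-148a-3p, among the most abundant miRNAs after miR-1a-3p, had 45643, 122519, 267094 and 233696 TMM-scaled CPM at D0. At D1 it had 94339, 68498, 6967 and 8662. D0 replicate 1 lay below D1 replicates 1 and 2, and the fall of 1.91 ± 0.70 was near the threshold (edgeR, adjusted p = 0.0478), with 2 of 8 fits with a library left out passing. MiR-148b-3p fell by 1.14 ± 0.27 without overlap (adjusted p = 0.0078), and stood at -0.03 on the library size scale. MiR-152-3p, with the same seed, did not pass on the TMM scale (log2 fold change -0.025, edgeR, adjusted p = 0.946).

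MiR-10a-5p and miR-10b-5p, which lie in the Hox gene clusters, fell by 1.48 ± 0.47 and 1.49 ± 0.49 on the log2 TMM scale (SE, edgeR, adjusted p = 0.0272 and 0.0290). MiR-10a-5p had 3655, 5046, 6116 and 5393 TMM-scaled CPM at D0 and 3294, 2760, 509.1 and 677.7 at D1. The groups did not overlap for either miRNA, and D1 replicates 3 and 4 were several times lower than D1 replicates 1 and 2. Neither passed on the library size scale. Of the 9 tested miRNAs with the let-7 seed, let-7a-5p, let-7f-5p and let-7i-5p fell on the TMM scale, by 0.78, 0.91 and 0.99. Over all miRNAs 11.4% fell on that scale. The library size scale gave 0.42, 0.25 and 0.10 for the same let-7 miRNAs, and let-7a-5p passed there as a rise.

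MiRNAs of vessels and stroma were followed as markers of other cells. MiR-126a-3p, the main endothelial miRNA, did not pass on the TMM scale (log2 fold change -0.24, edgeR, adjusted p = 0.458) and rose by 0.87 on the library size scale. Of the 4 tested endothelial members 0 passed on the TMM scale in edgeR, and 3 had an unadjusted p under 0.05. DESeq2 and limma with voom weights each called 2 higher, against 16.1% and 24.8% of all miRNAs. All 4 rose in edgeR on the library size scale, as did 59.3% of all miRNAs. MiR-126a-5p and miR-126b-3p in this list share nearly all their counts, so this pair does not count as 2 separate members. MiR-143-3p of smooth muscle fell without overlap, from 65172 to 114618 TMM-scaled CPM at D0 to 11709 to 60839 at D1 (log2 fold change -1.51 ± 0.41, SE, adjusted p = 0.0119). It also fell on the library size scale (log2 fold change -0.58), but there the groups overlapped. MiR-199a-5p of FBs rose by 1.15 ± 0.30 (adjusted p = 0.0108). The other arm, miR-199a-3p, and miR-214-3p did not pass on the TMM scale, at 0.55 and 1.18 (edgeR, adjusted p = 0.225 and 0.142). Over the list of FB and mural miRNAs 3 of 10 rose and 1 fell on the TMM scale, against 13.6% and 11.4% of all miRNAs. Limma with voom weights called 7 of the 10 higher and 1 lower, against 24.8% and 21.1% of all miRNAs.

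The remaining lists are read against the 13.6% of all miRNAs that rose and the 11.4% that fell on the TMM scale. On the library size scale 59.3% of all miRNAs rose and 2.27% fell. Limma with voom weights called 24.8% of all miRNAs higher and 21.1% lower. Of the miR-15 and miR-16 list, known to restrain the cell cycle, 4 of 12 tested members rose and 1 fell, with a median log2 fold change of 1.06, 10 rose on the library size scale, and limma with voom weights called 9 higher and 1 lower. Of the 15 tested members of the let-7 list 3 fell, with a median of -0.23, while 10 rose on the library size scale. Of the 10 tested members of the miR-23, miR-27 and miR-24 list 2 fell, miR-23b-5p and miR-27b-5p, with a median of -0.11, while 5 rose on the library size scale. Of 21 abundant heart miRNAs 3 rose and 5 fell, with a median of 0.05, and 12 rose and 1 fell on the library size scale. Limma with voom weights called 5 of the 21 higher and 8 lower.

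Of the 5 miRNAs with the largest SD at D1 among those averaging 100 CPM or more, miR-151-3p and miR-148a-3p passed the test in edgeR and miR-99a-5p, miR-100-5p and miR-674-3p did not. MiR-99a-5p had 62462, 49216, 8055 and 11392 TMM-scaled CPM in D1 replicates 1 to 4, and 21333 to 66981 at D0. MiR-100-5p, with its seed, had 50706, 39073, 5803 and 8808 at D1. Neither passed the test on either scale (edgeR, adjusted p = 0.451 and 0.402 with TMM), and the log2 fold changes of -0.57 and -0.66 with TMM had the opposite sign to the 0.29 and 0.19 with library size. MiR-674-3p had 442.2, 263.5, 58.05 and 73.5 at D1 and 150.6 to 725.8 at D0, and passed on neither scale (edgeR, adjusted p = 0.0665 with TMM). For all 3, D1 replicates 1 and 2 were several times higher than D1 replicates 3 and 4.

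The ratio of the 2 arms of a hairpin within a library does not depend on the scaling. It was given as log2 of the 5p over the 3p counts, with 0.5 added to each. Of 99 hairpins whose arms both averaged 10 or more counts in CMs, 42 or 42.4% changed at D1 (limma, Benjamini-Hochberg adjusted p under 0.05), 24 towards 5p and 18 towards 3p. In 14, or 14.1%, all D1 libraries lay outside the D0 range. With the 8 libraries alone no hairpin passed in limma, and 31 had an unadjusted p under 0.05. Of the 42, the ratio lay outside the D0 range in 15, 27, 41 and 42 hairpins in D1 replicates 1 to 4.

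MiR-151 changed most among hairpins whose arms both averaged 50 or more counts. Its log2 ratio was -3.40, -5.37, -6.56 and -5.08 in D0 replicates 1 to 4. In D1 replicates 1 to 4 it was -3.92, -1.31, 0.42 and 0.23. D1 replicate 1 lay within the D0 range, and the other 3 lay above it, with a difference of 3.96 ± 0.76 (SE, limma, adjusted p = 0.0016). The counts behind it were 277, 207, 227 and 366 for the 5p arm at D0 and 856, 1789, 2391 and 3134 at D1. For the 3p arm they were 2927, 8604, 21500 and 12404 at D0 and 12981, 4425, 1793 and 2677 at D1.

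MiR-106b changed in the same direction. Its log2 ratio was -4.57, -4.97, -5.98 and -5.72 at D0 and -4.57, -3.62, 0.04 and -0.63 at D1. D1 replicate 1 lay within the D0 range, while the 2 arms were nearly even in D1 replicates 3 and 4. The difference was 3.11 ± 0.80 (SE, limma, adjusted p = 0.0059). MiR-151, miR-106b and miR-708 were the 3 hairpins in which the 5p arm rose and the 3p arm fell on the TMM scale, and no hairpin showed the reverse.

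Of the other named hairpins, miR-143, miR-674, miR-195a, miR-361 and miR-30b moved towards 5p, by 2.06 to 2.57 log2 units, and miR-362 moved towards 3p by 2.05. In each of these 6, D0 replicate 1 was the D0 library nearest to D1 replicates 3 and 4, and D1 replicates 3 and 4 lay outside the D0 range. For miR-362 the 3p counts were 7, 1, 0 and 0 at D0 and 7, 15, 212 and 134 at D1, so the D0 ratios rest on few counts. With a library left out, the calls of miR-143, miR-361, miR-30b and miR-674 were lost in 4, 4, 5 and 3 of 8 fits, each time including those without D1 replicate 3 or 4, and that of miR-195a was lost without D1 replicate 3.

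**Figure D5:**
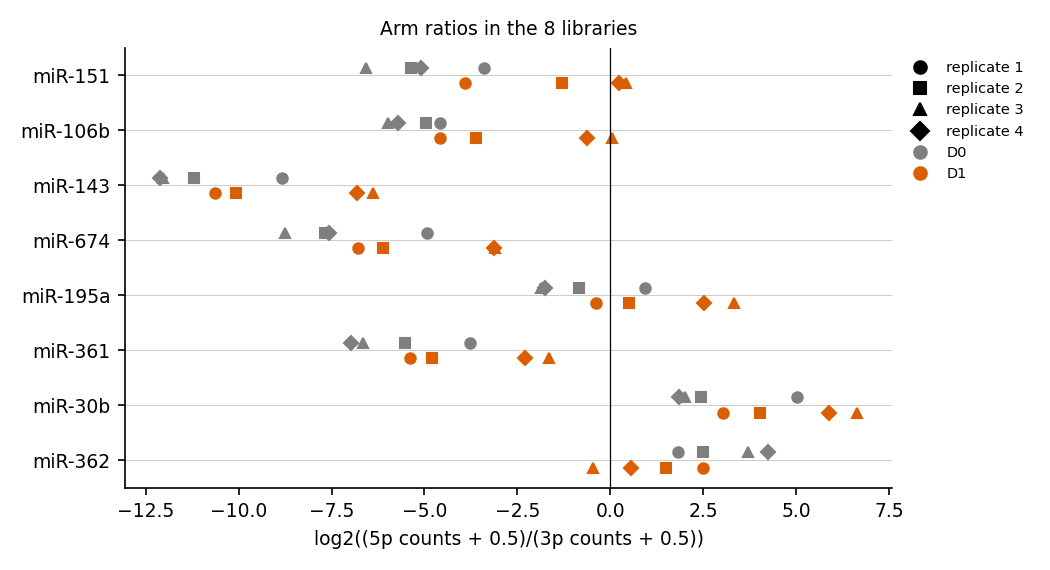
Log2 ratio of 5p to 3p counts (pseudocount 0.5) for the 8 called hairpins with the largest change among those whose arms both averaged 50 or more counts, in each D0 (grey) and D1 (orange) library. Marker shape gives the replicate. In all 8 rows D1 replicates 3 and 4 (triangle and diamond) lie outside the range of D0.

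The called miRNAs were also compared by sequence, as a description. The median GC content was 44.7% for the 58 matched miRNAs that rose, 47.8% for the 46 that fell and 47.6% for all 413 matched. The last base was A in 31% of the rises, 13% of the falls and 20.1% of all. Of the 224 tested 5p miRNAs 33 rose and 24 fell, and of the 232 tested 3p miRNAs 31 rose and 26 fell.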

How the data were processed

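Small RNA libraries of CMs were made from 500 ng of total RNA with 14 PCR cycles. The authors trimmed the reads with Trim Galore, aligned them with Bowtie2 and counted them with SAMtools, per the labels (mm10 named, no versions). The deposited tables hold raw counts per mature miRNA, 1978 of them, and a line of unmatched reads (29.0% to 42.0% in the 8 libraries) that was left out of all totals. How reads that match several or antisense sequences were assigned is not given in the sources used here. Every column of the tables used belongs to a sample of the series. The deposited hairpin tables were not used here.

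MiRNAs passing edgeR's filterByExpr in 24 CM libraries (484) were tested with edgeR 4.0.16 in R 4.3.3 (TMM, quasi-likelihood F-test, Benjamini-Hochberg, threshold 0.05), with day as a factor and the difference D1 minus D0. Values with SE are log2 fold changes of that fit. Arm ratios were tested with limma 3.58.1. DESeq2 1.42.0, limma voom with quality weights, other scalings, omission of each library and the fit of the 8 libraries alone were alternatives. Expression filtering in DESeq2 left 38 adjusted p as NA over 24 libraries, and 114 were NA over the 8 libraries. Single values were compared by exact two-sided permutation. The code was tested on simulated data. Python 3.11.15 and pandas 2.3.3 were used for summaries.

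Named were members of 12 miRNA lists, the 10 largest rises and falls with a mean of at least 10 CPM, the 5 highest at D0, the 5 with the largest SD at D1 (at least 100 CPM) and 8 hairpins. Others were chosen after their values were seen. The members and lists were chosen with earlier results of these data known. Totals of 10504090 to 24279105 counts make counting error small for abundant miRNAs but not for those with a few counts.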

Additional observations from a re-analysis of the deposited data

Results flagged for a closer look

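The D0 and D1 values of 82 miRNAs (log2 CPM on the TMM scale) and 8 hairpins (log2 arm ratio) gave 180 groups of 4 libraries. In 15 of them, all of miRNAs, 1 library lay apart from the other 3, with a gap to its nearest neighbour above Dixon's 95% critical share of the range of the group. Chance gives this in about 1 in 20 groups. D0 replicate 1 was the library in 12 of the 15. It was highest at D0 for miR-17-5p (5.122), miR-106a-5p (4.657), miR-210-3p (5.013), miR-20a-5p (7.362), miR-21a-5p (10.53), miR-195a-5p (5.11), miR-199a-5p (6.576), and for miR-126a-5p and miR-126b-3p (9.324 each), which share nearly all their counts from opposite strands. It was lowest for miR-181a-2-3p (7.818), miR-30e-3p (12.49) and miR-30a-3p (12.42). D1 replicate 1 was lowest for miR-30d-3p (5.424), D1 replicate 4 was highest for miR-142a-5p (2.496), and D0 replicate 4 was lowest for miR-20b-5p (-3.222), with 0 counts.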

How the results depend on the processing

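The count of 121 changed miRNAs (66 higher, 55 lower) depended on scaling, tool and library. It was 298 (287 and 11) with library size, 265 (235 and 30) with library size without miR-1a-3p, 222 (120 and 102) with limma voom weights, 153 (104 and 49) without a filter, 159 (78 and 81) with DESeq2 and 133 (64 and 69) with RLE. The 8 libraries alone gave 3 (0 and 3) with TMM and, added after seeing the data, 206 (204 and 2) with library size, 89 (39 and 50) with DESeq2 and 88 (34 and 54) with voom weights. Leaving out 1 library gave 46 to 192 (higher 21 to 126, lower 25 to 83). The count of 56 without overlap was 139 with library size, 65 with RLE, 83 without miR-1a-3p, and 58 to 175 with 1 library left out, 175 without D0 replicate 1 and 110 without D1 replicate 1. The median SD of D0 was 0.400 at 100 CPM or more, and 0.431 to 0.763 with 1 library left out, and that of D1 0.613 to 0.707. The 42 changed hairpins became 0 in the 8 libraries alone and 21 to 54 with 1 library left out, 21 without D1 replicate 3 and 27 without D1 replicate 4. The difference in the share of miR-1a-3p was -10.8 to -7.29 percentage points, and passed (exact permutation p = 0.0286) without D0 replicate 3. With the replicate block there were 126 changed miRNAs (58 and 68) and 41 hairpins. Same-numbered libraries had correlations of -0.588 to -0.052 in their deviations, so the numbers do not pair them. The cause of these changes was not tested.

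Signs turned to higher with library size for miR-99a-5p (0.29), miR-100-5p (0.19), miR-126a-3p (0.87), miR-150-5p (0.70), miR-146a-5p (0.98), miR-155-5p (1.00), miR-30a-5p (0.81), miR-30d-5p (0.72), miR-25-3p (0.29), let-7f-5p (0.25), let-7a-5p (0.42), let-7g-5p (0.95) and let-7i-5p (0.10), with the same values in the 8 libraries alone. With library size without miR-1a-3p they turned for miR-99a-5p (0.043), miR-126a-3p (0.50), miR-150-5p (0.22), miR-146a-5p (0.58), miR-155-5p (0.56), miR-30a-5p (0.47), miR-30d-5p (0.38), let-7a-5p (0.030) and let-7g-5p (0.55). Without a filter they turned for miR-126a-3p (0.035), miR-146a-5p (0.051) and let-7g-5p (0.015), and with voom weights for miR-150-5p (0.17, and 0.14 in the 8 libraries alone) and miR-146a-5p (0.031 in the 8 libraries alone). Over the fits with a library left out the sign turned for miR-150-5p (-0.72 to 0.39), miR-146a-5p (-0.32 to 0.090), miR-30a-5p (-0.55 to 0.034), miR-145a-5p (-0.054 to 0.43) and miR-322-3p (-0.062 to 0.60).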
